A study of Mus musculus with 8 samples.

Results

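The CCN matricellular proteins and the YAP pathway were examined through 10 genes, taken by symbol from the 53801 genes of the deposited count table. They were the CCN genes Ctgf, Cyr61, Nov, Wisp1 and Wisp2, the YAP target genes Ankrd1 and Amotl2, and the effectors Yap1, Wwtr1 and Tead1. The libraries came from mesenchymal cells of MO5 melanomas, which are B16 mouse melanoma cells carrying the ovalbumin gene, grown under the skin of ADAM12-GFP mice of 8 to 12 weeks on the C57BL/6 background and collected at day 8. In these mice a bacterial artificial chromosome transgene (Cre-Ires-GFP) reports the activity of Adam12, a metalloproteinase gene switched on in injured and tumor stroma. Cells lacking CD45 and CD31 and bearing PDPN and PDGFRα were sorted into GFP+ cells (ADAM12+, 4 libraries) and GFP- cells (ADAM12-, 4 libraries). Both groups therefore carry the transgene and share the tumor model and the gate, the labels name no treatment, and the groups differ in the reporter by which they were sorted. The labels do not say whether replicates came from separate mice, although the study's general statement on sample numbers counts mice unless it specifies otherwise. P-values measure the spread between these samples.

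YAP, encoded by Yap1, and TAZ, encoded by Wwtr1, are transcriptional co-activators that the kinases of the Hippo pathway hold in the cytoplasm. When cells spread, stretch or sit on stiff matrix, both proteins enter the nucleus, bind TEAD factors and switch on target genes, among which Ctgf, Cyr61 and Ankrd1 are the usual readouts. The CCN proteins are secreted into the matrix, where they bind integrins, proteoglycans and growth factors, and in fibroblasts CTGF is best known as a partner of TGF-β in scarring.

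Of the 10 genes, 4 were higher in GFP+ cells and 0 were lower at an adjusted p under 0.05 (DESeq2 fitted to all genes), where 4.66% of all 15283 tested genes were called higher and 4.76% lower, or 9.42% in either direction. Ctgf, Cyr61, Wisp2 and Amotl2 were higher, whereas Nov, Wisp1, Ankrd1, Yap1, Wwtr1 and Tead1 did not pass the test. The median log2 fold change was 0.52 over the 10 genes and -0.0082 over all tested genes. With edgeR, 4 of the 9 genes that passed its filter on low counts were called higher and 0 lower, beside 2.83% and 2.28% of its 14323 tested genes, or 5.11% in either direction. At an unadjusted p under 0.05, DESeq2 gave 5 genes higher and 0 lower, and edgeR gave the same counts, where 20.96% of all tested genes had a DESeq2 p under 0.05 in either direction. The study named Ctgf as higher in GFP+ cells from these same samples, so its direction here is not independent evidence.

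**Figure D1:**
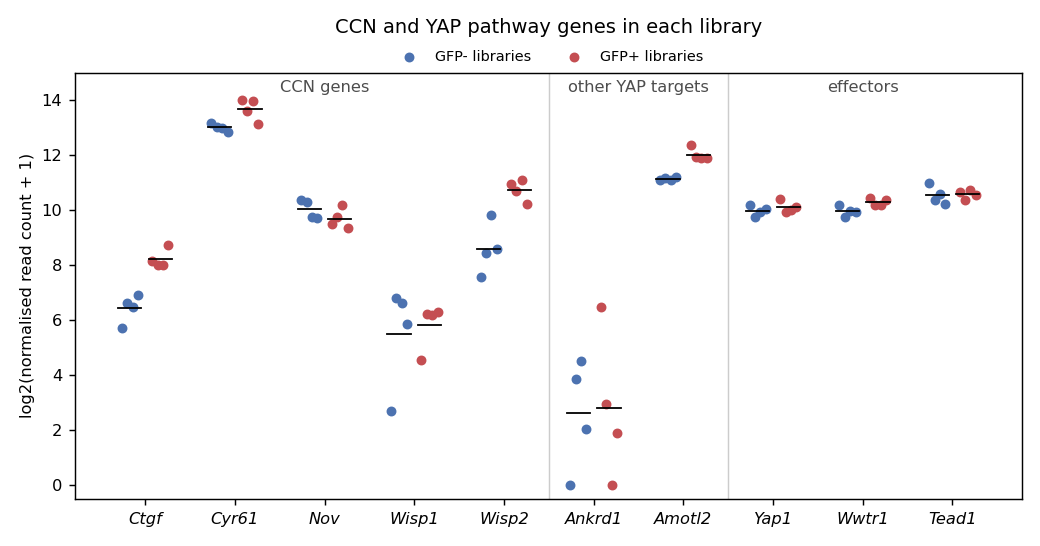
Normalised read counts of the 10 genes in each library, plotted as log2(count + 1), with GFP- libraries in blue, GFP+ libraries in red and black lines at the group means of the plotted values. The groups stand apart for Ctgf, Wisp2 and Amotl2 and, by a narrow margin, for Wwtr1, while Ankrd1 ranges from 0 to 87.5 normalised counts among GFP+ libraries.

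Total counts ran from 883144 in GFP- replicate 3 to 31666734 in GFP+ replicate 4, so 1 count in the shallowest library stands for many more normalised counts than in the deepest. Adam12 itself had 919.7 to 1693 normalised counts in GFP- and 1833 to 2938 in GFP+ libraries, with a log2 difference of 0.75 ± 0.24 (SE; adjusted p 0.0266 with DESeq2 and 0.0643 with edgeR). Fibroblast markers took 2.75 to 5.38% of counts in GFP- and 6.27 to 6.36% in GFP+ libraries. Of the 8 genes on that list 6 were called higher, and the list's median log2 difference was 0.89. Melanocyte markers took 0.253 to 0.779% of counts in GFP- and 0.0370 to 0.107% in GFP+ libraries. All 10 melanocyte genes were called lower in GFP+ cells, with a median log2 difference of -3.07, and none was at 0 in every library. What part the fibroblast and melanocyte shares have in the differences below was not tested. Schwann cell markers took at most 0.0226% and 0.00588% of GFP- and GFP+ counts, and 4 of the 6 tested were called lower. The summed shares of leukocyte, endothelial, and pericyte and smooth muscle markers overlapped between groups and were at or below 0.0482% in all libraries. Of the leukocyte genes 0 of 8 were called with DESeq2, 0 with edgeR and 0 at an unadjusted p under 0.05 by either tool, against 1 of 7 endothelial and 2 of 8 pericyte and smooth muscle genes (DESeq2). Itgam, an integrin of myeloid cells, was at 0 in every library. Other myeloid genes on the leukocyte list had reads, with means over all libraries of 120.8 normalised counts for Adgre1 and 119.8 for Cd68. Skeletal muscle and keratinocyte markers stayed at or below 0.00322%, with 0 of 3 tested genes called on each list with DESeq2, 0 of 2 with edgeR, and 0 and 1 at an unadjusted p under 0.05. In sorted bulk samples, fewer cells that express a gene and less RNA of it per cell cannot be told apart.

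**Figure D2:**
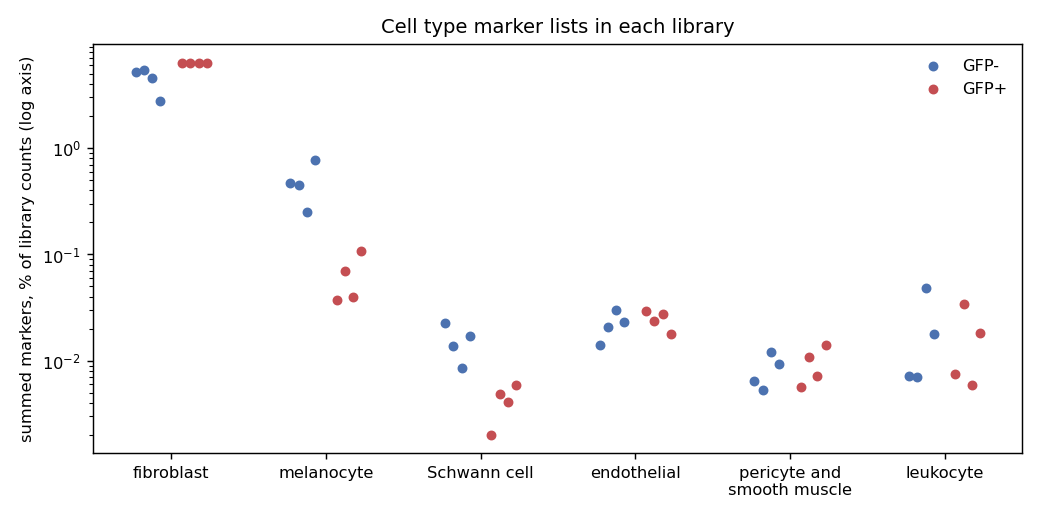
Share of each library's counts taken by 6 cell type marker lists, in percent on a log axis, with GFP- libraries in blue and GFP+ libraries in red. Melanocyte markers lie between 0.253 and 0.779% in GFP- and between 0.0370 and 0.107% in GFP+ libraries, and fibroblast markers are higher in all 4 GFP+ libraries than in any GFP- library.

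The letters shown next are the TEAD-type matches in the RefSeq promoters of the genes under study (build GRCm38.p6), since binding to TEAD factors is what defines the pathway. Searched on both strands, GGAATG, or its reverse complement CATTCC, occurred in the 250 bases before the start in 12.6% of 32851 promoters. Of the 10 genes, 5 matched the promoter table, namely Cyr61, Ankrd1, Amotl2, Yap1 and Wwtr1, and all 5 held the motif. Ctgf, Nov, Wisp1, Wisp2 and Tead1 were not matched. Each stretch of 30 bases is written 5′ to 3′ in the direction of its gene with the motif in capitals.
Cyr61, chr3:145650071-145650100, minus strand: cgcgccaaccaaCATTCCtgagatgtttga
Amotl2, chr9:102717727-102717756, plus strand: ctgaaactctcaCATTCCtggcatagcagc
Ankrd1, farther match, chr19:36120037-36120066, minus strand: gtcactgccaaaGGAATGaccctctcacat
Ankrd1, nearer match, chr19:36119950-36119979, minus strand: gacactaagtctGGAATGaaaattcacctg
Yap1, chr9:8004720-8004749, minus strand: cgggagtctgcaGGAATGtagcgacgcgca
Wwtr1, chr3:57576029-57576058, minus strand: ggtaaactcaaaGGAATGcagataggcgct

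The Cyr61 match began 103 bases before the start and the Amotl2 match 65 bases before it, both on the strand opposite to the gene. Ankrd1 held a pair of matches, at 210 and 123 bases before its start, and 1.02% of all promoters held 2 or more. Yap1 and Wwtr1 held theirs at 141 and 136 bases. The table lists 2 starts for Wwtr1, and the distance and the count of 5 rest on the one listed first. The Amotl2 and Ankrd1 matches lie inside exons of a GENCODE transcript of their own gene, upstream of the RefSeq start used here. Cyr61 and Amotl2 differed between groups while Ankrd1, Yap1 and Wwtr1 did not pass the test, so genes with a match fell on both sides of the threshold. Among the 12 matched promoters of the other YAP and TAZ targets listed below, 3 held the motif (25%), in Axl, Crim1 and Ptpn14. The motif was also in 7 of 21 matched promoters of the Hippo regulators (33.3%) and 4 of 16 of the SRF and MRTF list (25%). A match describes letters in this window and is not evidence of binding.

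Ctgf (ENSMUSG00000019997, chr10:24595442-24598683, plus strand) encodes connective tissue growth factor, also called CCN2. Normalised read counts were 51.55, 98.9, 87.9 and 119.2 in GFP- replicates 1 to 4, and 283.3, 255.6, 258.1 and 428.1 in GFP+ replicates 1 to 4. Every GFP+ library exceeded every GFP- library, with GFP+ replicate 4 well above the other GFP+ libraries. Means of 89.4 ± 28.4 and 306.3 ± 82.2 (SD, 4 libraries each) differed 3.39-fold, by 1.76 ± 0.35 (SE) on the log2 scale, with an adjusted p of 2.11e-05 by DESeq2 and 0.0106 by edgeR. These values rest on few reads in some libraries, since GFP- replicate 3 held 8 raw counts of Ctgf and GFP+ replicate 4 held 1276. With any 1 library left out, the log2 fold change lay between 1.54 and 1.97 and the gene stayed below the threshold. The melanocyte share in replicates 1 to 4 was 0.465, 0.445, 0.253 and 0.779% in GFP- and 0.0370, 0.0699, 0.0400 and 0.107% in GFP+ cells. On the other strand, 665 bases of Ctgf exon overlap Gm15270, which had 0 to 55 raw counts per library; the counting used the strand.

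Wisp2 (chr2:163820861-163833146, plus strand) encodes CCN5, the CCN protein that lacks the C-terminal domain of the others. Its normalised counts were 187.2, 344, 911.9 and 388.2 in GFP- replicates 1 to 4, and 1962, 1660, 2207 and 1195 in GFP+ replicates 1 to 4. The groups did not overlap, although GFP- replicate 3, the shallowest library, came close to the lowest GFP+ library. With means of 457.8 ± 315 and 1756 ± 436 (SD, n = 4 each), the log2 fold change was 1.99 ± 0.39, or 3.97-fold (adjusted p 2.71e-05 with DESeq2, 0.00695 with edgeR). Wisp2 thus had the largest called fold change of the 10 genes, and its interval of 1.21 to 2.76 overlapped that of Ctgf, 1.08 to 2.44.

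Cyr61 (chr3:145646976-145649981, minus strand) encodes CCN1, an immediate early gene product and integrin ligand. GFP- replicates 1 to 4 had 9309, 8409, 8208 and 7429 normalised counts, and GFP+ replicates 1 to 4 had 16440, 12560, 16190 and 8996. The groups overlapped, because GFP+ replicate 4 lay below GFP- replicate 1. The means were 8339 ± 773 and 13550 ± 3513 (SD, n = 4 each), and the log2 fold change was 0.70 ± 0.21, or 1.62-fold, with an adjusted p of 0.0147 by DESeq2 and 0.0481 by edgeR. This call was lost without GFP- replicate 4 (adjusted p 0.0608 with DESeq2), without GFP+ replicate 1 (0.0542) and without GFP+ replicate 3 (0.0923), while the log2 fold change stayed at 0.61 or more.

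Nov (chr15:54745702-54754039, plus strand) encodes CCN3, which in several cell types opposes CCN2. Its counts were 1339, 1256, 857 and 834.6 in GFP- replicates 1 to 4 and 715.2, 857.7, 1175 and 653.2 in GFP+ replicates 1 to 4. The groups overlapped, and the log2 difference was -0.34 ± 0.26 with a 95% interval of -0.85 to 0.16 (adjusted p 0.494 with DESeq2, 0.511 with edgeR).

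Wisp1 (chr15:66891320-66923201, plus strand) encodes CCN4, known as a WNT-induced gene. Its normalised counts were 5.43, 112.5, 98.89 and 56.73 in GFP- replicates 1 to 4 and 22.2, 74.05, 72.98 and 76.83 in GFP+ replicates 1 to 4. Replicate 1 was the lowest library in both groups, with 4 and 16 raw counts. The log2 difference of -0.11 ± 0.73 had no stable sign (adjusted p 0.964 with DESeq2). Wisp3, the remaining CCN gene, had 11 raw counts in GFP- replicate 2, 2 in GFP+ replicate 4 and 0 in each of the other libraries, where a count of 0 allows up to 1.26 to 32.96 normalised counts by counting error alone. No adjusted p was available for Wisp3.

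**Figure D3:**
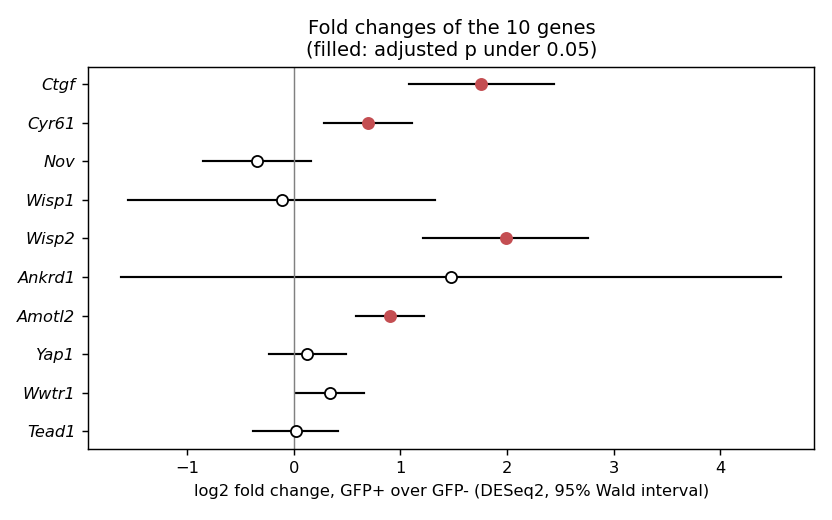
Log2 fold change of GFP+ over GFP- cells for the 10 genes with 95% Wald intervals from DESeq2, filled where the adjusted p was under 0.05. Ctgf, Cyr61, Wisp2 and Amotl2 are filled, at 1.76, 0.70, 1.99 and 0.90, and the widest interval is that of Ankrd1.

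Amotl2 (chr9:102716672-102733418, plus strand) encodes angiomotin-like 2, a junction protein that is both induced by YAP and able to bind and restrain it. Normalised counts were 2210, 2285, 2175 and 2351 in GFP- replicates 1 to 4, and 5367, 3883, 3799 and 3830 in GFP+ replicates 1 to 4. The GFP- libraries lay close together and all GFP+ libraries lay above them, with GFP+ replicate 1 the highest. The means of 2255 ± 78.5 and 4220 ± 766 (SD, 4 libraries each) gave a log2 fold change of 0.90 ± 0.16, or 1.87-fold (adjusted p 2.83e-06 with DESeq2, 0.0039 with edgeR). With any 1 library left out, the log2 fold change was between 0.78 and 0.95.

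Ankrd1 (chr19:36111961-36120099, minus strand) encodes a cardiac ankyrin repeat protein that is one of the most used YAP reporters. Raw counts were 0, 19, 2 and 6 in GFP- replicates 1 to 4 and 63, 16, 0 and 8 in GFP+ replicates 1 to 4. Normalised, these were 0, 13.6, 21.97 and 3.15 in GFP- and 87.5, 6.69, 0 and 2.68 in GFP+ libraries. A single GFP+ library carried most of the reads and both groups contained a library with 0 counts, for which counting error allows up to 4.07 normalised counts in GFP- replicate 1 and 2.31 in GFP+ replicate 3. The fitted log2 difference was 1.48 ± 1.58 (adjusted p 0.664 with DESeq2), it became -1.42 without GFP+ replicate 1, and the gene fell below the edgeR filter.

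The effectors did not pass the test. Yap1 (chr9:7931999-8004596, minus strand) had 1157, 871.4, 988.9 and 1060 normalised counts in GFP- replicates 1 to 4, and 1369, 983.2, 1018 and 1103 in GFP+ replicates 1 to 4. The groups overlapped, with replicate 1 the highest library in each. The log2 difference was 0.13 ± 0.18, with a 95% interval of -0.23 to 0.49 (adjusted p 0.766 with DESeq2, 0.734 with edgeR). Over 116 bases, Yap1 exons overlap Gm20416 on the other strand, which had 0 to 8 raw counts per library.

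Wwtr1 (chr3:57455649-57575910, minus strand) had 1165, 862.1, 1011 and 971.2 normalised counts in GFP- replicates 1 to 4 and 1391, 1179, 1168 and 1320 in GFP+ replicates 1 to 4. Every GFP+ library was above every GFP- library, by as little as 1168 against 1165, and groups stood apart in this direction for 6.37% of all tested genes and in the other for 5.95%. Of the 10 genes, 4 stood apart in this direction and 0 in the other. The log2 difference of 0.34 ± 0.16 did not pass adjustment (unadjusted 95% interval 0.018 to 0.66; adjusted p 0.205 with DESeq2, 0.257 with edgeR).

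Tead1 (chr7:112679318-112906807, plus strand), the TEAD factor of highest count here, had 2013, 1319, 1527 and 1213 normalised counts in GFP- replicates 1 to 4 and 1627, 1314, 1712 and 1492 in GFP+ replicates 1 to 4. The GFP+ values fell within the GFP- range. The log2 difference was 0.02 ± 0.20, with an interval of -0.38 to 0.42 (adjusted p 0.980 with DESeq2). The unadjusted intervals of Yap1 and Tead1 thus exclude a doubling in either direction but leave room for smaller differences.

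Levels could be compared between genes as normalised counts per kilobase of exon. The length was that of all annotated exons of a gene merged, and no other length was tried, so the order rests on that choice. Cyr61 had the highest level in both groups, 4130 in GFP- and 6709 in GFP+ cells, which was 132.2 and 62.6 times the level of Ctgf. Ctgf ranked 8 of 10 in both groups, at 31.25 per kilobase in GFP- and 107.1 in GFP+ cells. In GFP+ cells the libraries of Ctgf overlapped those of Tead1, the next gene up (113.2), whereas in GFP- cells they lay below all libraries of Yap1 (110.1) and overlapped those of Wisp1, the next gene down. Wisp2 ranked 4 in GFP- cells (238 per kilobase) and 2 in GFP+ cells (912.7), where its range overlapped that of Amotl2 (671). In GFP- cells Nov (373.5), Amotl2 (358.6), Wisp2 and Wwtr1 (209.7) each overlapped their neighbour in the order. Wisp1 (12.3 and 11.05) and Ankrd1 (3.36 and 8.39) were the lowest in both groups and overlapped each other.

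Whether Ctgf rose by the same amount as the other YAP targets was asked with the ratio of normalised counts within each library. The log2 ratio of Ctgf to Amotl2 was -5.41, -4.52, -4.62 and -4.30 in GFP- replicates 1 to 4 and -4.24, -3.92, -3.88 and -3.16 in GFP+ replicates 1 to 4. All GFP+ ratios were above all GFP- ratios, and the means differed by 0.91. The two-sided exact permutation p was 0.0286, the smallest that 70 divisions of 4 against 4 libraries allow, and 0.0857 after adjustment over the 3 ratios tested. For Ctgf over Cyr61 the log2 ratio was -6.59 ± 0.64 in GFP- and -5.46 ± 0.73 in GFP+ cells (SD, n = 4 each), a difference of 1.14 with an exact permutation p of 0.0571 (adjusted 0.0857). For Ctgf over Ankrd1 the difference was 1.60, with ratios of 1.98 to 6.70 in GFP- and 1.69 to 9.01 in GFP+ libraries and an exact permutation p of 0.429. No ratio passed adjustment with all 8 libraries. Without GFP- replicate 4 the differences over Cyr61 and Amotl2 were 1.349 and 1.051, and both passed (exact permutation p 0.0286 each, the smallest possible), so this call depended on that library.

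**Figure D4:**
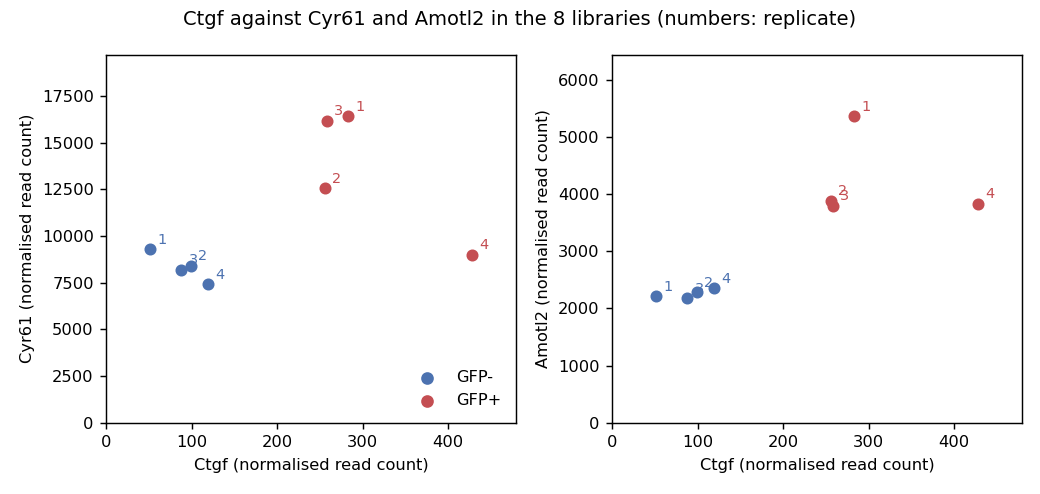
Normalised read counts of Ctgf (horizontal) against Cyr61 (left, vertical) and Amotl2 (right, vertical) in the 8 libraries, with GFP- in blue, GFP+ in red and replicate numbers beside the points. GFP+ replicate 4 has the highest Ctgf, 428.1, and the lowest Cyr61 of the GFP+ libraries, 8996.

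Within the groups, the other genes were set against Ctgf from library to library. After each group's mean was subtracted, Ctgf and Cyr61 had a Pearson correlation of -0.69 over the 8 libraries, and Ctgf and Amotl2 one of 0.025. The highest Cyr61 and the lowest Ctgf in GFP- cells were both in replicate 1, and the lowest Cyr61 and the highest Ctgf in GFP+ cells were both in replicate 4. The remaining genes correlated with Ctgf at -0.74 (Tead1), -0.67 (Nov), -0.38 (Wwtr1), -0.23 (Yap1), 0.22 (Wisp2), 0.28 (Ankrd1) and 0.68 (Wisp1). Among 8811 genes with a mean of at least 100 normalised counts, the 5 most like Ctgf by this measure were Gbp5 (0.988), Arc (0.966), 9930111J21Rik2 (0.948), Cflar (0.941) and Ston1 (0.939). Of these, Arc, an immediate early gene, was higher in GFP+ cells (log2 fold change 1.74, adjusted p 1.44e-09 with DESeq2). The points share library depth and composition, and the coefficients are descriptions.

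Other genes that respond to YAP and TAZ in many cell types were called in both directions. Of 17 tested genes on that list, 4 rose and 2 fell (3 and 1 with edgeR), with a median log2 difference of 0.14. The 4 that rose were 23.5% of the list, where 4.66% of all tested genes were called higher and 4.76% lower. Ccdc80, a matrix protein gene, had the largest rise at 1.37 ± 0.17 (adjusted p 1.93e-12 with DESeq2), from 4127 ± 889 to 10570 ± 735 normalised counts. F3, which encodes tissue factor, rose by 1.33 ± 0.23, and Igfbp3, encoding a carrier of insulin-like growth factors, by 1.14 ± 0.22. Arhgef17 rose by 0.67 ± 0.21 (adjusted p 0.0195 with DESeq2) but was not called with edgeR (0.0787). Dock5, a Rac exchange factor, fell by 1.38 ± 0.42 (adjusted p 0.0173 with DESeq2) but was not called with edgeR (0.0775). Ptpn14, a phosphatase that is both a YAP target and a YAP inhibitor, fell by 1.12 ± 0.30 (adjusted p 0.00374 with DESeq2, 0.0353 with edgeR). Axl, a receptor tyrosine kinase often used as a YAP target, had a log2 difference of 0.23 ± 0.17 and did not pass (adjusted p 0.469 with DESeq2).

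Of the Hippo kinases and regulators, 24 were tested, 3 rose and 2 fell (3 and 1 with edgeR), with a median log2 difference of 0.086. The 3 that rose were 12.5% of those tested, beside 4.66% of all tested genes called higher and 4.76% lower. Fat4, a large cadherin at the top of the pathway, rose by 1.42 ± 0.20, from 652.4 ± 145 to 1711 ± 215 normalised counts. Frmd6, a FERM domain scaffold, rose by 1.10 ± 0.23 and Stk3, the MST2 kinase, by 0.67 ± 0.18. Amotl1, a relative of Amotl2, fell by 0.66 ± 0.22, opposite in direction to Amotl2, but was not called with edgeR (adjusted p 0.0325 with DESeq2, 0.0787 with edgeR). Ptpn14, which is on both lists, fell as given. The kinase gene Lats1 had a log2 difference of -0.05 ± 0.23, and Lats2, itself a YAP target, was almost without reads in both groups at means of 0.52 and 0.19 normalised counts.

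The other TEAD factors and their cofactors gave 0 calls among 5 tested genes with DESeq2 and 0 with edgeR, with 1 higher and 1 lower at an unadjusted p under 0.05 by either tool. Vgll3, a TEAD cofactor of mesenchymal cells, had a log2 difference of 0.47 ± 0.19 (adjusted p 0.0967 with DESeq2), and Vgll4, which competes with YAP for TEAD, had one of -1.03 ± 0.39 (adjusted p 0.0794). These were the genes with unadjusted p under 0.05, and they were chosen for naming after their values were seen.

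Among receptors for CCN proteins, 3 of 10 tested genes rose and 0 fell, also with edgeR, where DESeq2 called 4.66% of all tested genes higher. They were Sdc4, encoding the heparan sulfate proteoglycan syndecan-4, at 0.91 ± 0.23, Lrp1, an endocytic receptor, at 0.86 ± 0.18, and Lrp6, a WNT co-receptor that binds CTGF, at 0.62 ± 0.13. Lrp1 went from 31330 ± 4174 to 56850 ± 9521 normalised counts. At an unadjusted p under 0.05, 3 were higher and 1 lower by either tool. The lower one was Itga6, an integrin subunit of laminin receptors, with 168.9 ± 38.5 and 42.5 ± 41.8 normalised counts and a log2 difference of -1.97 ± 0.75 that did not pass adjustment (adjusted p 0.0768 with DESeq2, 0.200 with edgeR). It was named after its value was seen.

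Ctgf and Cyr61 are also targets of SRF with its MRTF cofactors and, for Ctgf, of TGF-β signaling. On the list of SRF, MRTF and their contractile targets, 0 of 17 tested genes were called with DESeq2 and 0 with edgeR, 3 were lower and 0 higher at an unadjusted p under 0.05 by either tool, and the median log2 difference was -0.094, where 20.96% of all tested genes had an unadjusted DESeq2 p under 0.05. On the list of TGF-β targets, 0 of 12 genes were called with DESeq2 and 0 with edgeR, and 1 was lower and 0 were higher at an unadjusted p under 0.05 by either tool. Its median log2 difference was -0.14. Immediate early genes, the class to which Cyr61 is often counted, rose in 14 of 19 cases with 0 falling (9 with edgeR). Their median log2 difference was 0.65, and DESeq2 called 4.66% of all tested genes higher. The largest of these were Arc at 1.74 ± 0.25, Egr2 at 1.02 ± 0.27, Fosb at 0.93 ± 0.20 and Zfp36 at 0.87 ± 0.20, beside 0.70 for Cyr61. Whether any of these pathways or gene classes has a part in the values of Ctgf or Cyr61 was not tested.

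**Figure D5:**
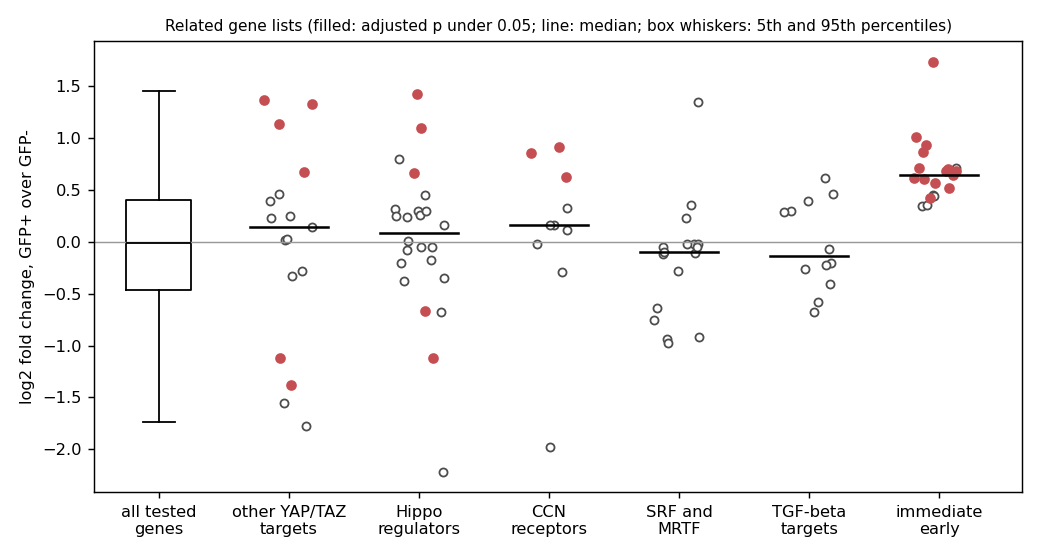
Log2 fold change of GFP+ over GFP- cells for the tested genes of 6 related lists, filled where the adjusted p was under 0.05 (DESeq2), with a line at each list's median, beside a box of all 15283 tested genes whose whiskers mark the 5th and 95th percentiles. All 19 immediate early genes lie above 0, while the other YAP and TAZ targets spread to both sides.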

How the data were processed

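Libraries were prepared from total RNA with the SMARTer Stranded Pico v2 kit and sequenced on a NextSeq. Per the study's methods and the submitters' processing notes, the authors trimmed adapters with cutadapt 3.4, mapped to GRCm38 with STAR 2.7.3a and counted reads per Ensembl gene, by strand, with featureCounts 2.0.1. The authors deposited raw counts per gene and library, which are the start of every value here. The table also holds the authors' rounded normalised scores, mean signal, fold ratio, log2 fold change, p-values and dispersion scores from DESeq2, and the deposited results of that comparison were not used. Per-sample columns left unused: 0.

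In R 4.3.3, the 29043 genes with a count were fitted with DESeq2 1.42.0, group as the only term, with two-sided Wald tests, default filters and Benjamini-Hochberg adjustment, and adjusted p under 0.05 was called. No adjusted p was given to 13443 genes of low mean count, and no p to 317 genes with a high Cook's distance. Normalised counts are raw counts divided by the size factors (0.0910 to 2.98). Alternatives used edgeR 4.0.16, limma 3.58.1, other scalings and filters, a replicate block and each library left out. Ratios had 0.5 added to both counts. Zero counts were read as at most 3 counts, a limit that covers counting error only. The tests were checked on simulated counts. Pairs of replicates differed by 10.2 to 81.3 times their degrees of freedom in chi-square tests, more than 1 library deposited again would give, and all 8 were kept; this does not show that they came from separate mice. Samples were grouped by the reporter state in their labels, which give no batch. Coordinates are from GENCODE M21, in which 53706 gene IDs (99.82%) were found, and promoter sequences are from RefSeq.

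The 10 genes and all lists were chosen with earlier results of these data known. All 10 were named, with Wisp3 looked up, up to 4 called genes of largest change per direction from each related list, and the 5 genes most like Ctgf. Further genes (Axl, Lats1, Lats2, Vgll3, Vgll4, Itga6, Itgam, Adgre1, Cd68 and the motif-bearing promoters) were named after their values were seen. Marker lists are summarised by shares and counts.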

Additional observations from a re-analysis of the deposited data

Results flagged for a closer look

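In 4 cases 1 library lay so far from the other libraries of its group that the gap to the nearest, divided by the group's range, was above Dixon's 95% critical value for 4 samples. GFP+ replicate 4 was high in Ctgf, at 428.1 normalised counts. GFP+ replicate 1 was high in Ankrd1 (87.48) and Amotl2 (5367) and low in Wisp1 (22.22). Without GFP+ replicate 4 Ctgf remained called, without GFP+ replicate 1 Amotl2 remained called, and the log2 difference of Ankrd1 turned to -1.42. Chance puts about 1 in 20 groups past this limit, and 20 groups were looked at.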

How the results depend on the processing

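Ctgf, Wisp2 and Amotl2 were called higher under all 17 alternatives, and Cyr61 under 13. Nov, Yap1 and Wwtr1 kept their direction and stayed uncalled in all 17. Genes called over the whole table numbered 1439, 732 with edgeR, 844 at an adjusted p under 0.01, and 969 to 1837 with a library left out. GFP- replicate 4 gave the low end and GFP- replicate 3, the shallowest, the high end. Without the latter the median log2 difference of all genes moved by 0.12. Sign changed for Wisp1 with limma (0.46), with the replicate block in DESeq2 (0.24) and edgeR (0.27), and among left-out libraries (-0.51 to 0.32). It changed for Ankrd1 with the block in DESeq2 (-0.58) and among left-out libraries (-1.42 to 2.07), and for Tead1 among left-out libraries (-0.079 to 0.195). The cause was not tested. The log2 ratio difference of Ctgf over Cyr61 ranged from 0.781 to 1.349 and over Amotl2 from 0.68 to 1.059 with a library left out. Without GFP- replicate 4 both passed adjustment (exact permutation p 0.0286 each). Samples with the same replicate number correlated at -0.158 to 0.262, and 1 of 4 GFP- libraries was closest to its own number. The main test had no block. The labels do not say whether GFP+ and GFP- libraries of one number came from one tumor. With the replicate block, edgeR called 596 genes, DESeq2 1492, and both called the same count of the 10 genes, 4. Under the block the sign-flip p of the ratios was 0.125 or more, the smallest 4 pairs allow. Raw counts per library were as low as 0 for Ankrd1 and Wisp3 and 4 for Wisp1.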
